A study of Mus musculus with 18 samples.

Results

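The 42 genes described here had an RNA signal that was at least 1.5 log2 units lower after 6 h of lipopolysaccharide than before it in dendritic cells without Ubc9, and no more than 0.5 lower in wild-type cells. They were chosen from group means of 3 arrays. The 6 h mean of knockout cells minus their unstimulated mean had to be −1.5 or lower, the same difference in wild-type cells above −0.5, and the unstimulated knockout mean at least 6. A difference of −1.5 on the log2 scale is a signal 2.83-fold lower, and one of −0.5 leaves 70.7% of the signal. Of 19938 genes with 1 symbol, 8950 had an unstimulated knockout mean of at least 6, and 175 of these (1.96%) had a knockout change of −1.5 or lower. In 133 of the 175 the wild-type change was −0.5 or lower too, and the other 42 (24%) are the genes of this account. The values at 0 h and 6 h chose these genes, so those values are given as a description, with no test. A change below is a difference between 2 group means.

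The cells were mouse bone marrow-derived dendritic cells, which sense microbes and present antigens, grown for 10 days in medium with 20 ng/ml of the growth factor GM-CSF and 10% serum. All 6 groups, wild type included, received 100 nM 4-hydroxytamoxifen on day 6. They were UBC9WT or UBC9KO cells, each left unstimulated or given 10 ng/ml lipopolysaccharide (LPS), a bacterial cell wall component sensed through Tlr4, for 1 h or 6 h. Each group had 3 arrays, called biological replicates in the series design, on Affymetrix Mouse Gene ST 1.0 with 200 ng of total RNA each. The labels name neither the Cre line or allele nor the animals' strain or age, so the limits of the knockout as a model cannot be stated from them.

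Ubc9 is the conjugating enzyme that passes the small protein SUMO to other proteins, many of them in the nucleus. SUMO is attached to many transcription factors and chromatin proteins, where it often lowers transcription, and it is also needed for chromosome segregation. After LPS, dendritic cells switch on cytokine and interferon genes, slow their division, and change their lipid and glucose metabolism.

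Replicate arrays were close to each other, with a Pearson's r over probe sets of 0.983 to 0.993 within groups. The 15 markers of conventional dendritic cells had array means of 6.51 to 7.13 log2, and 9 of them lay below 5.5, the median signal of all genes. Itgax (group means 10.68 to 11.17), Sirpa (11.75 to 12) and Cd24a (10.43 to 10.91) had clear signal, while Flt3 (5.0 to 6.19) and Zbtb46 (4.98 to 5.41) lay near the median and Xcr1 (3.34 to 3.73) and Clec9a (3.6 to 4.28) well below it. The array means of 14 macrophage markers were 8.69 to 9.96. Those of B cells, of T and NK cells, and of mast cells and basophils had array means of 3.79 to 4.46, in the low range. Other marker lists lay around or above 5.5: neutrophils at 5.54 to 6.23, erythroid cells at 5.05 to 5.87 and stromal cells at 5.05 to 5.85. Plasmacytoid dendritic cell markers had array means of 5.72 to 6.76, highest in knockout cells at 6 h (6.56 to 6.76). Knockout array 3 of each condition stood apart from the other knockout arrays in cell cycle genes, as given below. In RNA from whole cultures, fewer cells of a type and less RNA per cell cannot be told apart.

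At 6 h the knockout signal of the 42 genes was 1.5 to 2.31 log2 units below its unstimulated level, with a median change of −1.65, whereas the wild-type change ranged from −0.49 to 0.39 with a median of −0.33. Over the 8950 genes that passed the same floor, the median change was −0.26 in knockout and −0.02 in wild-type cells. With arrays scaled on their 75th percentile these 2 medians were 0.01 and −0.04. Most wild-type means were also below their unstimulated level: 31 of 42 had a wild-type change below −0.25, 7 lay between −0.25 and 0, and only Ankrd28, Atad2, Bub1b and Cbr3 were above 0 (3 of them with arrays scaled on their 75th percentile). In 18 of 42 all 3 wild-type arrays at 6 h lay below all 3 unstimulated ones, which was so in 19.3% of the 8950 genes. The rule used both of these contrasts, so nothing is read from the shares.

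**Figure D1:**
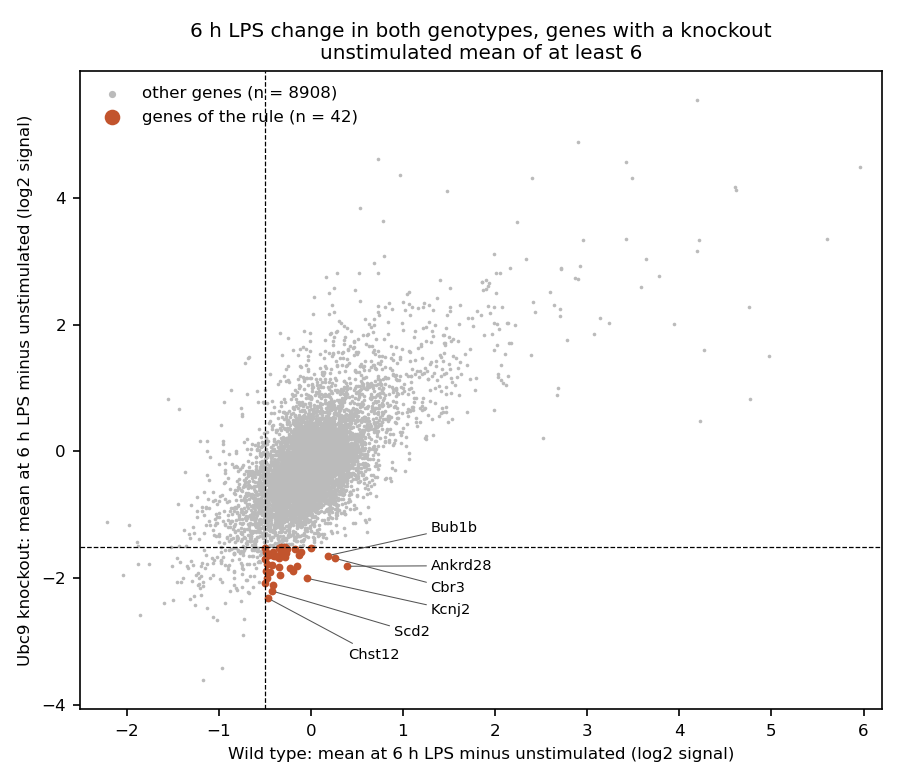
Each point is a gene with an unstimulated knockout mean of at least 6, placed by its 6 h LPS change in wild-type cells (x axis) and knockout cells (y axis), both in log2 signal from means of 3 arrays; dashed lines mark the thresholds of −0.5 and −1.5. The 42 genes (red) lie close to the left dashed line, with 4 of them at or right of 0.

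Nor was the signal gone. In 35 of 42 genes the 6 h knockout mean was still above 5.5, the median signal of all genes, and 7 were below it (Anln, Bub1b, Ints6l, Kcnj2, Klrb1a, Prim1 and Prkar2a). All 3 knockout arrays at 6 h lay below all 15 other arrays in 36 of 42 genes (26.4% of the 8950), and below all 3 unstimulated knockout arrays in 38 (46.3% of the 8950). The 6 exceptions to the first were Anln, Bub1b, Ccna2, Fbxo5, Nt5dc2 and Prim1, and the 4 to the second Anln, Bub1b, Ccna2 and Prim1. The rule used these arrays, and nothing is read from the shares. Comparing arrays of the same replicate number, 40 of 42 genes were at least 1 lower at 6 h in all 3 knockout numbers (not Anln and Bub1b), and 18 were at least 1.5 lower in all 3. The rule had already set the mean change of these arrays, so nothing is read from these counts either. Their shares over the 8950 genes were not taken.

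**Figure D2:**
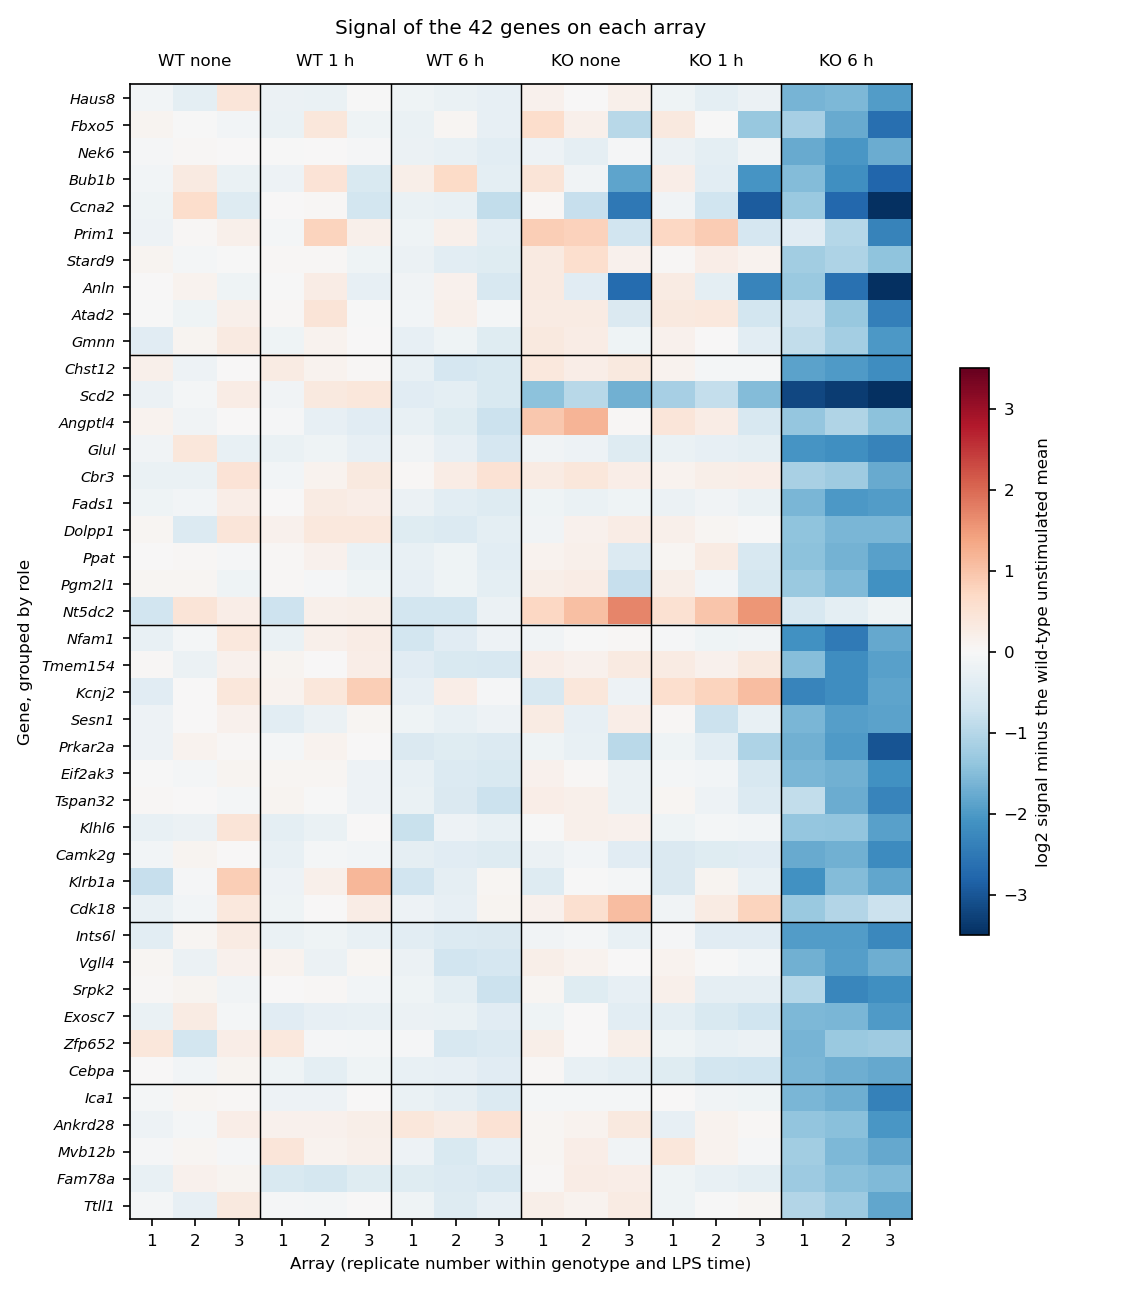
Colour shows the log2 signal of each gene on each of the 18 arrays minus that gene's mean in unstimulated wild-type cells, with genes in rows grouped by role and the 6 groups of 3 arrays in columns (WT wild type, KO knockout, none unstimulated). The 3 columns at 6 h in knockout cells are the bluest in most genes, though only faintly blue in Nt5dc2. Scd2 is blue in all knockout columns, and in several genes of the top block knockout array 3 is already blue when unstimulated and at 1 h.

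By role, 10 of the 42 genes act in lipid, amino acid, nucleotide or sugar metabolism, 11 in signalling, stress or at the membrane, 6 in transcription or RNA processing, and 10 in cell division or DNA replication. The last 5 act in traffic and the cytoskeleton or have no role that is well known. The median knockout change was alike between these groups, from −1.78 for signalling to −1.56 for transcription and RNA.

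Among the metabolic genes, Chst12, a sulfotransferase that modifies chondroitin chains, had the most negative change of all 42. Its knockout arrays read 8.71, 8.57 and 8.7 unstimulated, 8.47, 8.27 and 8.28 at 1 h, and 6.49, 6.38 and 6.18 at 6 h. The wild-type arrays read 8.52, 8.17 and 8.37 unstimulated and 8.08, 7.77 and 7.82 at 6 h. The knockout arrays at 6 h stood far below the 15 others, and the wild-type arrays at 6 h were also all below the unstimulated ones. The change was −2.31 in knockout (4.97-fold lower) and −0.46 in wild-type cells.

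Glul, glutamine synthetase, showed the same order. It read 10.82, 10.78 and 10.5 on the unstimulated knockout arrays and 8.88, 8.8 and 8.6 at 6 h. In wild-type cells it read 10.84, 11.34 and 10.68 unstimulated and 10.83, 10.66 and 10.36 at 6 h. The wild-type arrays overlapped between the 2 times, and the knockout arrays did not: 26.0% of the signal was left in knockout cells and 79.1% in wild type. A second probe set named for Glul gave −1.7 in knockout and −0.46 in wild-type cells.

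The 250 bases before the annotated starts of Chst12 and Glul are shown because each held a short motif that few promoters have. Sequences are from RefSeq (GRCm38.p6), written 5′ to 3′ on the gene's strand. The Chst12 window, chr5:140505359-140505608 (plus strand), held a palindrome, TCTCG followed by CGAGA, in capitals, 53 bases before the start. The Glul window, chr1:153899679-153899928 (plus strand), held on the other strand the core of the interferon-stimulated response element, GAAA, any 2 bases and GAAA again, in capitals 175 bases before the start.
Chst12: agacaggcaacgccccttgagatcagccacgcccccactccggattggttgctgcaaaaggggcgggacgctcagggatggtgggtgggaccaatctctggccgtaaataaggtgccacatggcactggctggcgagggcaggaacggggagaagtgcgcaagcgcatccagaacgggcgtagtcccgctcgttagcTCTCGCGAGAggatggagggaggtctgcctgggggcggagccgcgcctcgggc
Glul: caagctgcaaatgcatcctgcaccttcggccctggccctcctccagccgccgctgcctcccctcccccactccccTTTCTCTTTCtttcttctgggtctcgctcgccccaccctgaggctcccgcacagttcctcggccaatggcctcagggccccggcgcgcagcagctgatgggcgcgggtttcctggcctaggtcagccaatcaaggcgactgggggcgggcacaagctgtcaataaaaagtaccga
In windows reaching 50 bases past the start and read on both strands, the palindrome occurred in 1 of 34 genes with a promoter sequence (2.94%), against 0.833% of 15614 measured genes and 1.42% of those above the floor. A match is only a match of letters.

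Scd2, a stearoyl-CoA desaturase that makes monounsaturated fatty acids, differed between the genotypes before any LPS. Knockout arrays read 9.18, 9.65 and 8.93 unstimulated, 9.46, 9.78 and 9.1 at 1 h, and 7.42, 7.28 and 6.45 at 6 h. Wild-type arrays read 10.41, 10.53 and 10.88 unstimulated, 10.5, 10.96 and 11 at 1 h, and 10.21, 10.27 and 10.09 at 6 h. All 9 knockout arrays were below all 9 wild-type arrays, and the 6 h knockout arrays were lower still. Of the other lipid genes, Fads1, a desaturase of polyunsaturated fatty acids, was lower by 3.21-fold at 6 h in knockout cells (change −1.68, wild type −0.34). Angptl4, a secreted inhibitor of lipoprotein lipase, read 8.07, 8.33 and 7.16 unstimulated and 5.79, 6.08 and 5.7 at 6 h in knockout cells. Its unstimulated knockout mean was 0.73 above wild type, with knockout array 3 lower than the other two and level with the wild-type arrays.

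These 3 genes were the ones found from a list of 28 measured genes of lipid handling under the nuclear receptors LXR and PPARG, which control fat uptake and desaturation in myeloid cells. The list's median change at 6 h was −0.46 in knockout and −0.26 in wild-type cells. Both Pparg (−2.01 and −0.98) and its partner Rxra (−1.56 and −0.78) were lower in knockout cells by more than 1.5, but were lower in wild-type cells too and so are outside the 42. None of 24 measured genes of sterol synthesis and uptake was among the 42, and their median change was −0.52 in knockout cells and 0.00 in wild-type cells. Before LPS the array means of these sterol genes were already lower in knockout (7.89 to 8.5) than in wild-type cells (8.85 to 9.0).

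Cbr3, a carbonyl reductase, had the opposite direction in the 2 genotypes. Knockout arrays read 8.56, 8.66 and 8.51 unstimulated and 7.13, 7.03 and 6.5 at 6 h. Wild-type arrays read 8.04, 8.04 and 8.74 unstimulated and 8.31, 8.53 and 8.78 at 6 h. The knockout arrays were apart by over 1 unit (change −1.69), while the wild-type arrays overlapped and were higher at 6 h within each replicate number (mean change 0.27). Nt5dc2, a nucleotidase-like protein, was the only gene of the 42 whose knockout mean at 6 h was above wild type, by 0.13. It read 7.24, 7.56 and 8.23 in unstimulated knockout cells against 5.86, 6.97 and 6.74 in wild type, and 5.95, 6.17 and 6.37 against 5.89, 5.89 and 6.32 at 6 h. Its lower signal at 6 h thus started from a level 1.15 above wild type and ended level with it, with the genotypes overlapping at 6 h. In the remaining metabolic genes the knockout change lay close to the threshold: −1.63 for Dolpp1, a phosphatase of the dolichol cycle of protein glycosylation, −1.6 for Ppat, which commits to purine synthesis, and −1.53 for Pgm2l1, a glucose bisphosphate synthase.

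**Figure D3:**
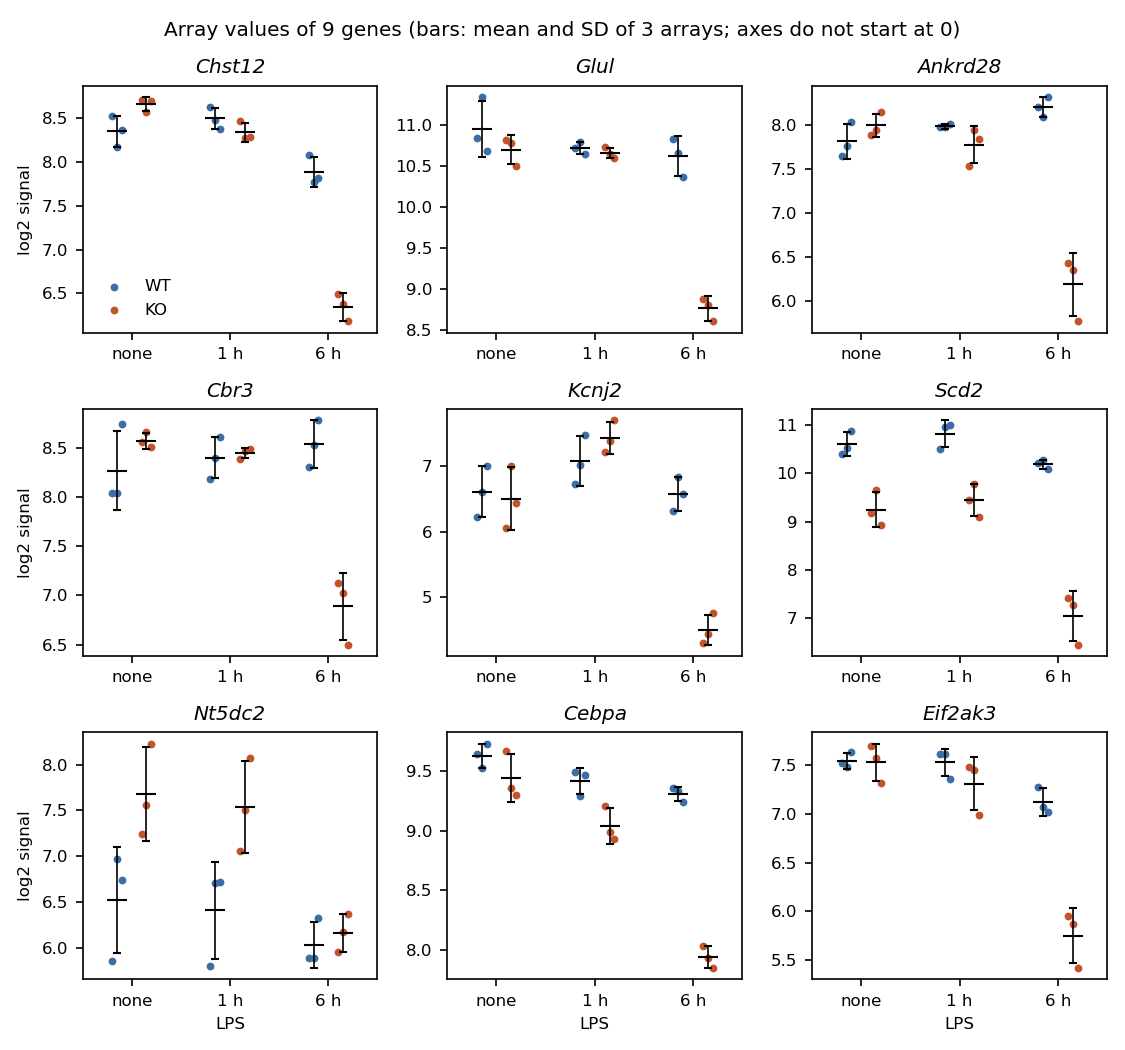
Points are the log2 signal of single arrays of wild-type (blue) and knockout (red) cells without LPS and after 1 h and 6 h for 9 genes, with bars at the mean ± SD of 3 arrays; axes differ between panels and do not start at 0. In 8 of the 9 genes the knockout arrays at 6 h lie below every other array, and in Nt5dc2 they lie among the wild-type arrays.

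The 11 signalling, stress and membrane genes ranged from −2.1 to −1.62 in knockout cells. In all 11 the 6 h knockout arrays lay below all 15 others, as in 36 of the 42 genes and 26.4% of the 8950. The rule used these arrays, and nothing is read from the count. Nfam1, a receptor with an activating motif that signals to NFAT, read 9.86, 9.96 and 10.01 unstimulated and 7.84, 7.5 and 8.18 at 6 h in knockout cells. In wild-type cells it read 9.7, 9.89 and 10.34 unstimulated and 9.33, 9.58 and 9.79 at 6 h, and these overlapped. Tmem154, a membrane protein of little-known function, had a change of −2.08 in knockout cells and of −0.49 in wild-type cells. A second Tmem154 probe set of low signal gave −0.76 and −0.81, so the difference between the genotypes rests on 1 of its 2 probe sets.

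Kcnj2, an inward-rectifier potassium channel, was higher at 1 h and lower at 6 h in knockout cells. Knockout arrays read 6.05, 7.0 and 6.43 unstimulated, 7.21, 7.39 and 7.7 at 1 h, and 4.3, 4.44 and 4.76 at 6 h. Wild-type arrays read 6.22, 6.61 and 7.01 unstimulated, 6.73, 7.02 and 7.48 at 1 h, and 6.32, 6.83 and 6.57 at 6 h. All 3 knockout arrays at 1 h were above the unstimulated ones (mean difference 0.94, against 0.46 in wild type, where the arrays overlapped). From 1 h to 6 h the knockout mean was lower by 2.93 log2 units, the widest step among the 42, and it ended in the low range of the array.

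Eif2ak3 encodes PERK, the sensor kinase of endoplasmic reticulum stress, and read 7.7, 7.57 and 7.32 unstimulated and 5.95, 5.87 and 5.42 at 6 h in knockout cells. In wild-type cells it read 7.52, 7.48 and 7.63 unstimulated and 7.28, 7.07 and 7.02 at 6 h. Neither genotype overlapped between the 2 times, and the step was −1.78 in knockout against −0.42 in wild-type cells. Camk2g, a calcium and calmodulin-dependent kinase, had changes of −1.65 in knockout and −0.38 in wild-type cells. Cdk18, a cyclin-dependent kinase, had changes of −1.62 and −0.12, from an unstimulated knockout level 0.60 above wild type. Prkar2a, a regulatory subunit of protein kinase A, had changes of −1.78 and −0.47, with knockout array 3 the lowest in every condition.

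Sesn1, a stress-induced p53 target that restrains mTOR signalling, read 7.81, 7.25 and 7.77 unstimulated and 5.92, 5.61 and 5.67 at 6 h in knockout cells. In wild-type cells it read 7.35, 7.54 and 7.69 unstimulated and 7.38, 7.26 and 7.35 at 6 h, which overlapped. The changes were −1.88 and −0.20. It was the only member among 22 measured p53 targets (median −0.09 in knockout and −0.12 in wild-type cells) and among 31 genes of PI3K, AKT and mTOR signalling (−0.21 and −0.10). The surface proteins Tspan32, a tetraspanin of blood cells, and Klrb1a, a lectin-like receptor, had changes of −1.69 and −1.64, and Klhl6, an adaptor of a ubiquitin ligase, one of −1.65. The wild-type arrays of Klrb1a were widely spread (5.51, 6.3 and 7.18 unstimulated).

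Of the 6 genes of transcription and RNA, Cebpa, a transcription factor of myeloid development, read 9.67, 9.36 and 9.3 unstimulated, 9.21, 8.99 and 8.93 at 1 h, and 8.03, 7.93 and 7.85 at 6 h in knockout cells. Wild-type arrays read 9.64, 9.53 and 9.73 unstimulated, 9.49, 9.29 and 9.47 at 1 h, and 9.36, 9.33 and 9.24 at 6 h. The knockout arrays were lower at each later time with no overlap, and the 6 h step of −1.51 lay just inside the threshold. It was the only member among 38 measured transcription factors of myeloid and dendritic lineages, whose median change was 0.24 in knockout and 0.00 in wild-type cells. Ints6l, a protein of the Integrator complex family, had a change of −1.9, and Vgll4, a cofactor of TEAD factors, one of −1.89. Srpk2, a kinase of splicing factors, read 8.12, 7.64 and 7.76 unstimulated and 7.06, 5.77 and 5.92 at 6 h in knockout cells, and array 1 at 6 h stood over 1 above the other 2. Exosc7, a subunit of the RNA exosome, had a change of −1.54 and the zinc finger protein Zfp652 one of −1.53.

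Ankrd28, a regulatory subunit of protein phosphatase 6, had the widest gap between the genotypes' changes. Knockout arrays read 7.89, 7.95 and 8.15 unstimulated and 6.44, 6.35 and 5.77 at 6 h. Wild-type arrays read 7.65, 7.76 and 8.04 unstimulated and 8.21, 8.1 and 8.32 at 6 h. Every wild-type array at 6 h was above every unstimulated one, while every knockout array at 6 h was at least 1 below. The changes were 0.39 in wild-type and −1.81 in knockout cells, a difference of −2.2. Ica1, a membrane-curving protein of secretory granules, had a change of −1.81 in knockout cells, where its unstimulated arrays read 8.43, 8.44 and 8.45. Mvb12b, a subunit of the ESCRT machinery of endosomal sorting, and Fam78a both had a change of −1.59, and Ttll1, a subunit of a tubulin-modifying enzyme, one of −1.58.

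The 10 genes of cell division and DNA replication differed among themselves in how their arrays were spread. Unstimulated knockout array 3 was at least 1 below both others in Anln, Bub1b, Ccna2, Fbxo5 and Prim1, but not in the rest of the 10. It was so too in the metabolic gene Pgm2l1, whose unstimulated knockout arrays read 8.08, 8.13 and 7.06. In Haus8, a subunit of the microtubule-branching complex augmin, the knockout arrays read 7.64, 7.48 and 7.66 unstimulated and 5.85, 5.92 and 5.52 at 6 h. In Nek6, a mitotic kinase, they read 10.21, 10.08 and 10.36 unstimulated and 8.63, 8.37 and 8.65 at 6 h. These 2 genes were tight and apart from the other arrays. In Ccna2, cyclin A2 of S phase and mitosis, they read 9.43, 8.58 and 6.87 unstimulated, 9.25, 8.69 and 6.48 at 1 h, and 8.08, 6.63 and 5.28 at 6 h. The unstimulated array 3 was thus close to array 2 at 6 h, and the times overlapped, although each replicate number was lower at 6 h.

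Anln, which builds the contractile ring, read 7.48, 6.77 and 4.47 unstimulated and 5.87, 4.54 and 3.68 at 6 h in knockout cells. Bub1b, a kinase of the spindle checkpoint, read 7.87, 7.3 and 5.57 unstimulated and 5.9, 5.27 and 4.63 at 6 h. In both, array 3 was over 1 below the other 2 before LPS, and the knockout times overlapped. Bub1b read 7.32, 7.72 and 7.18 unstimulated and 7.62, 8.08 and 7.08 at 6 h in wild-type cells, where the times overlapped as well. Prim1, the catalytic subunit of primase, and Fbxo5, an inhibitor of the anaphase-promoting complex, had the same low array 3, with SDs of 0.86 and 0.82 over the 3 unstimulated knockout arrays. Atad2, a chromatin ATPase with a bromodomain, Gmnn, the replication licensing inhibitor geminin, and Stard9, a mitotic kinesin, had changes of −1.52, −1.5 and −1.59. Both other probe sets of Stard9 gave −1.76 and −1.66.

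The Bub1b promoter, chr2:118597961-118598210 (plus strand, RefSeq, GRCm38.p6), is shown as the other of the 2 that held the interferon-stimulated response element core, in capitals 239 bases before the start.
Bub1b: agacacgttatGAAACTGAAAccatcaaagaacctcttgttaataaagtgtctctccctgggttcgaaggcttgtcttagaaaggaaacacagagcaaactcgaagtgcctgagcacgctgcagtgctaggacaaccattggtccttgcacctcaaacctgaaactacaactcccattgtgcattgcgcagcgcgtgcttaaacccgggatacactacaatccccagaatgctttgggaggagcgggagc
The motif occurred in 2 of 34 genes with a promoter sequence (5.88%), against 3.89% of all 15614 genes and 3.95% of those above the floor.

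**Figure D4:**
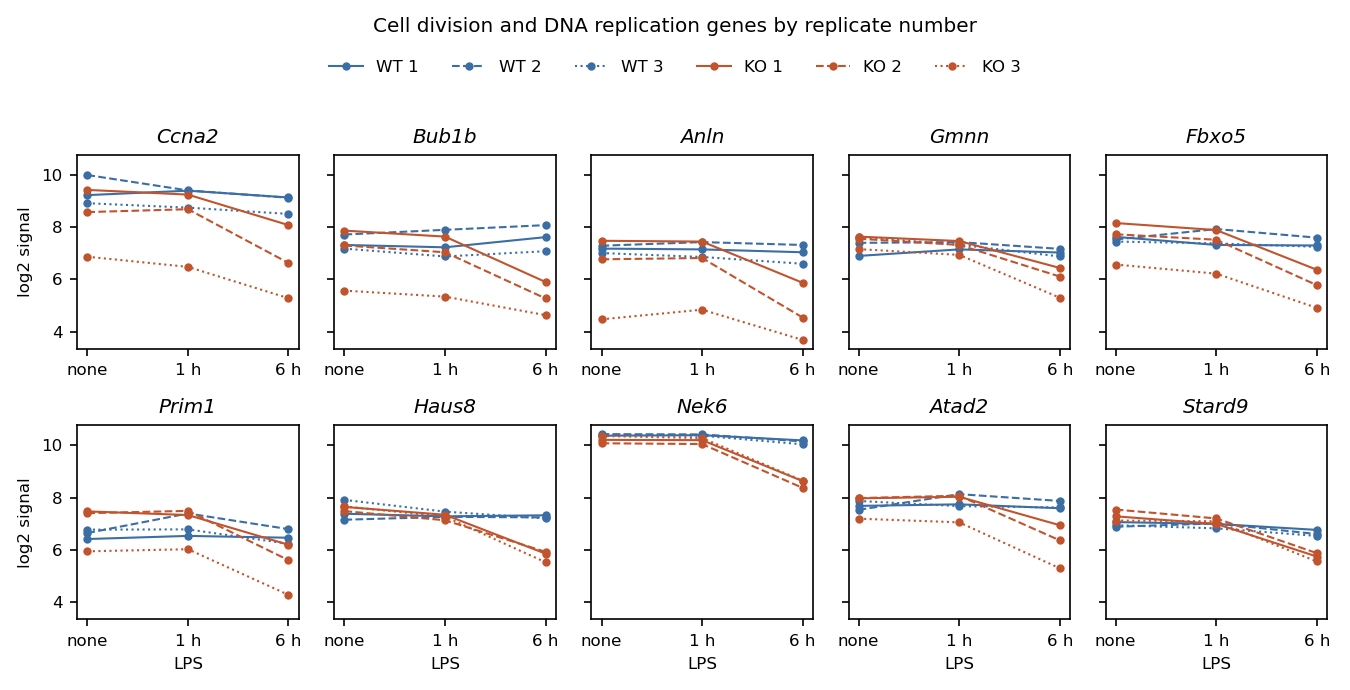
Lines join the log2 signal of arrays with the same replicate number within a genotype (blue wild type, red knockout; solid 1, dashed 2, dotted 3) without LPS and after 1 h and 6 h, for the 10 cell division and DNA replication genes. Knockout number 3 (dotted red) is the lowest knockout line at the start in 8 of the 10 genes, by over 1 unit in Ccna2, Bub1b, Anln, Fbxo5 and Prim1, and all knockout lines are lower at 6 h.

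Over the 10 cell division genes, unstimulated knockout array 3 was lower than the mean of arrays 1 and 2 by a median difference of −1.08, and lowest in 8 of 10. The same median was −0.2 over the metabolic genes and 0.08 over the signalling genes. Over a wider list of 68 measured cell cycle genes, 4 of them members, the array means were 7.88, 7.6 and 6.71 in unstimulated knockout cells, 7.09, 6.71 and 6.16 at 6 h, 7.53 to 7.78 in unstimulated wild-type cells and 7.15 to 7.54 at 6 h. The median change of this list was −0.84 in knockout and −0.30 in wild-type cells, and 7 of the 68 were at least 1.5 lower in knockout cells. Macrophage markers stood the other way on these arrays: the means over 14 genes were 8.96, 9.25 and 9.96 in unstimulated knockout cells. At 6 h they were 9.35, 9.43 and 9.94 in knockout cells, against 8.95 to 9.2 in wild-type cells. Other lists differed between the unstimulated knockout arrays too. Interferon-inducible antiviral genes had means of 9.02, 9.62 and 10.44 (6.27 to 6.56 in unstimulated wild-type cells). Sterol genes had means of 8.5, 8.2 and 7.89 (8.85 to 9.0 in unstimulated wild-type cells). In none of the marker lists was a gene 1.5 or more lower at 6 h in knockout cells. The part of cell makeup or of proliferation before LPS in these changes was not tested. Without the knockout arrays numbered 3, a choice made after seeing the data, 48 genes met the rule, among them 35 of the 42.

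At 1 h the differences from unstimulated cells were small but mostly to the lower side in knockout cells. The knockout mean at 1 h was within 0.5 of the unstimulated mean in 40 of 42 genes, with Kcnj2 (0.94) and Angptl4 (−0.68) outside, and the median change was −0.13, against −0.04 over the 8950 genes. The quartiles over the 8950 were −0.15 and 0.07, so a change within 0.5 was common among them too. The mean was below the unstimulated one in 34 of 42, and in 5456 of the 8950. In all 3 replicate numbers 23 of 42 were lower (36.7% of the 8950), while Kcnj2, Scd2 and Tmem154 were higher in all 3. In wild-type cells 41 of 42 were within 0.5, with Fam78a (−0.52) outside and a median of −0.01. There the quartiles over the 8950 were −0.09 and 0.11. From 1 h to 6 h the knockout mean of each of the 42 was lower, by a median difference of −1.56, as it was in 6312 of the 8950 (median −0.22 over all of them). These comparisons share the unstimulated or the 6 h arrays with the rule and were not tested.

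The genotypes at 1 h were the one comparison whose arrays the rule did not use, and it was tested in limma over all genes with Benjamini-Hochberg adjustment. Over 19938 genes 436 were called at an adjusted p under 0.05 (2.19%), 299 of them higher (1.5%) and 137 lower (0.687%) in knockout cells. Of the 8950 genes above the floor 4.3% were called, 3.06% higher and 1.24% lower. Of the 42 genes 1 was called (2.38%), lower in knockout cells, which is near these shares. That gene was Scd2, at 9.45 ± 0.34 in knockout and 10.82 ± 0.28 in wild-type cells (SD, n = 3), a difference of −1.37 ± 0.24 (SE; limma, adjusted p = 0.0044), with all 3 knockout arrays below all 3 wild-type arrays. At an unadjusted limma p under 0.05, 7 of 42 (16.7%) passed, against 11.1% of all genes and 17.4% of the 8950. The count over all genes was 243 without wild-type array 2 or without knockout array 3 at 1 h, and 269 without wild-type array 1, and Scd2 was called each time.

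None of the other 41 passed the adjusted test. The nearest were Nt5dc2, 1.13 ± 0.33 higher in knockout cells (limma, adjusted p = 0.094), Cebpa, −0.38 ± 0.11 (limma, adjusted p = 0.095), and Fads1, −0.38 ± 0.12 (limma, adjusted p = 0.16). In Nt5dc2 the knockout arrays read 7.06, 7.5 and 8.07 and the wild-type arrays 5.8, 6.71 and 6.72, without overlap. Same-numbered arrays of the genotypes at 1 h deviated together to a small degree (r 0.105 to 0.153). With the number as a block, 828 genes were called, and of the 42 Nt5dc2 was called higher (limma, adjusted p = 0.001) and Cebpa lower (limma, adjusted p = 0.033) beside Scd2. With genotype and number as random blocks, Nt5dc2 was called (limma, adjusted p = 0.041). The 3 knockout arrays lay below the 3 wild-type arrays in 8 of 42 genes (16.8% of the 8950) and above them in 2 (11.8%). The median difference of the 42 was −0.13, beside −0.03 over all genes and −0.04 over the 8950.

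A missed threshold does not show that the genotypes were alike, so the intervals of the differences are given. The 95% interval of the difference at 1 h had a median half-width of 0.4 log2 units, from 0.2 to 1.55. In 38 of 42 genes it excluded a difference of −1.5, and in 33 it lay within 1 unit of 0 on both sides. The intervals of Anln, Bub1b, Ccna2 and Scd2 reached −1.5, and in the first 3 the knockout arrays had SDs of 1.19 to 1.47.

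**Figure D5:**
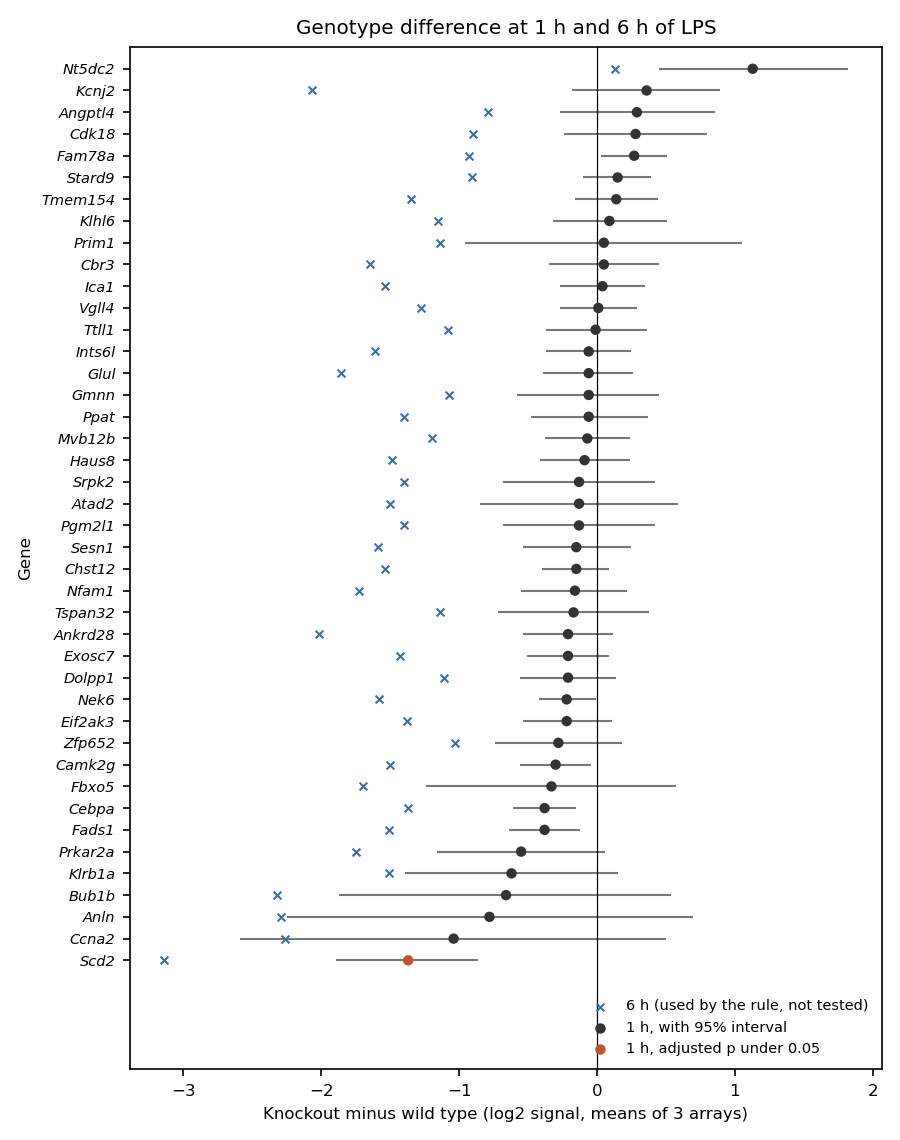
For each of the 42 genes, dots are the knockout minus wild-type difference in log2 signal at 1 h of LPS (means of 3 arrays each) with its 95% interval from limma, and crosses the same difference at 6 h, which the rule used. Scd2 (red dot, −1.37) is the gene called at 1 h, and the crosses of all genes but Nt5dc2 lie left of 0.

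Without LPS the knockout and wild-type means of the 42 genes were level, with a median difference of 0.00 and 36 of 42 within 0.5. Angptl4 (0.73), Cdk18 (0.60) and Nt5dc2 (1.15) were higher and Anln (−0.92), Ccna2 (−1.09) and Scd2 (−1.36) lower in knockout cells. Over the 8950 genes the difference without LPS had quartiles of −0.14 and 0.15, so most members were no closer than genes at large. At 6 h, 41 of 42 were lower in knockout cells, with a median difference of −1.46. Of the 8950 genes above the floor 6343 were lower, with a median of −0.24 over the 8950. In Nt5dc2 the knockout level was above wild type before LPS and level with it at 6 h, and in Scd2 it was below wild type at all 3 times. Both comparisons share arrays with the rule.

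The genes nearest the thresholds had values that were almost the same on both sides. Just inside −1.5 in knockout cells were Gmnn (−1.502), Cebpa (−1.505), Atad2 and Nt5dc2 (both −1.518) and Zfp652 (−1.527). Just outside were Tfeb (−1.497), Cbx5 (−1.496), Mlec (−1.495), Tuba4a (−1.494) and Nop58 (−1.493). At the wild-type threshold, Tspan32 and Tmem154 (both −0.494) and Nt5dc2 (−0.492) were inside, and Heatr1 (−0.507), Plin3 (−0.512) and Uck2 (−0.52) outside. The number of genes that met the rule moved with single arrays. It was 124 without unstimulated knockout array 3, 100 without knockout array 1 at 6 h and 24 without knockout array 3 at 6 h, and it was 14 with arrays scaled on their 75th percentile.

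To see how the same pattern held in arrays that did not choose the genes, the rule was applied without 1 replicate number and the left-out arrays were read. Without number 1 it found 45 genes, whose left-out knockout change had a median of −1.33 (−0.09 in wild type), and in 45 of 45 it was lower than the wild-type change. Without number 2 it found 42 genes, with a left-out median of −1.62 (−0.40 in wild type) and 42 of 42 lower. Without number 3 it found 60 genes, with a left-out median of −1.68 (−0.55 in wild type) and 58 of 60 lower. Over the genes above the floor, the left-out medians were −0.23, −0.25 and −0.28 in knockout cells and 0.0, −0.01 and −0.06 in wild type, and the knockout change was the lower in 70.4%, 68.2% and 70.8% of genes. Each threshold of the rule held in fewer genes of these sets. The left-out knockout change was −1.5 or lower in 12 of 45, 29 of 42 and 41 of 60 genes. The left-out wild-type change was above −0.5 in 43 of 45, 24 of 42 and 26 of 60 genes. The sets so found were only in part the genes of this account: 25 of 45, 26 of 42 and 35 of 60 were members. The left-out medians are descriptions, since arrays of the same number within a genotype moved together.

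The promoters were read for features that the rule did not use. A window was at hand for 34 of the 42 genes, and 8 (Angptl4, Atad2, Camk2g, Ccna2, Fads1, Gmnn, Scd2 and Ttll1) were not matched. The 34 had 45 windows, and a gene counted for a motif if any of its windows held the letters. The median GC content was 62.0% over the 34, 57.5% over all 15614 genes with a window and 61.0% over those above the floor. Motif shares are given over the 34, over all genes and over genes above the floor. The CCAAT box (CCAAT) occurred in 52.9%, 41.7% and 42.2%. The GC box (GGGCGG) occurred in 61.8%, 52.9% and 70.3%, so the 34 were above all genes and below those above the floor. The E-box (CACGTG) occurred in 17.6%, 9.5% and 12.7%, and TATAAA in 17.6%, 13.6% and 8.36%. TTTGAA, the cell cycle genes homology region, occurred in 20.6%, 17.3% and 13.8%. The 7 genes of the 34 with it were Anln, Bub1b, Cbr3, Fbxo5, Ica1, Srpk2 and Zfp652. The NF-kB letters, GGG, any 3 bases and TTCC, occurred in 1 of 34 (2.94%, in Fam78a), 6.44% and 7.2%. The ETS letters CCGGAAGT occurred in 1 of 34 (Haus8), 6.01% and 10.4%, the sterol regulatory letters TCACNCCAC in 1 (Sesn1), 1.4% and 1.25%, and the ZFP143 site in 1 (Prim1), 0.525% and 0.844%. No window of the 34 held the E2F letters TTTCGCGC (0.519% of all genes and 0.83% of those above the floor), the C/EBP letters TTGCGCAA (0.256% and 0.367%), the cyclic AMP element TGACGTCA (2.72% and 3.73%), the PU.1 letters GAGGAAGT (3.24% and 4.0%), or the NRF1 (1.61% and 2.6%) and YY1 (1.49% and 2.78%) sites. None of these shares was tested.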

How the data were processed

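The deposited values are log2 signals that the authors made with RMA, per the submitters' processing notes; the log base is not stated there, and the range of 1.5 to 13.71 is that of RMA log2 signals. RMA includes quantile normalization, so a change is relative to the other genes of an array. There are no detection calls, and the number of arrays limits the precision.

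Of 35556 probe sets, 21789 had 1 gene symbol, 1621 had several and 12146 were not listed in the platform annotation. Gene identifiers of 21698 matched the RefSeq gene table (GRCm38.p6, names only). The probe set with the highest mean was kept for each of 999 genes with several, leaving 19938 genes. Knockout minus wild type at 1 h was tested in limma 3.58.1 (R 4.3.3) with 6 group means over 18 arrays, 12 residual degrees of freedom, 2-sided, with Benjamini-Hochberg adjustment over all genes; the script was tested on simulated data. Alternatives were other scalings, probe set summaries, thresholds, blocks, weights and leaving out arrays.

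The 42 genes and the lists were chosen with earlier results of these data known; roles and 4 motifs (TTTGAA, TTTCGCGC, TCACNCCAC and TTGCGCAA) were set once the genes were. Genes were named by rule for the size of their change in either genotype or at 1 h, their level, their list, their call or their closeness to a threshold, and other members for their role. Arrays with the same replicate number correlated within a genotype (r 0.15 to 0.80 over 18 pairs, on values centred on group means) and less so between genotypes (−0.11 to 0.30, with 12 of 27 above 0.1). Between the genotypes at 1 h r was 0.112, 0.105 and 0.153, all above 0.1, so the blocked result stands beside that test; no label ties the numbers across genotypes. The labels name no animals or cultures, so p-values measure the spread between these samples. The transcript of the deleted gene is not reported here.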

Additional observations from a re-analysis of the deposited data

Results flagged for a closer look

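In Ankrd28 and Cbr3 the 3 replicate numbers of each genotype differed from their unstimulated arrays in opposite directions at 6 h. The mean change of Ankrd28 was −1.81 in knockout and 0.39 in wild-type cells, and that of Cbr3 was −1.69 and 0.27. Every knockout number was lower and every wild-type number higher in both. The difference between the genotypes was not tested, since the rule used these arrays. With 3 arrays in a group, single outlying arrays were not looked for by a formal test.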

How the results depend on the processing

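The count of 42 genes depended on the thresholds and on scaling. With a knockout threshold of −2 it was 4, with −1 it was 390, and with a wild-type threshold of 0 it was 4. It was 14 when each array was scaled on its 75th percentile, all of them members; that percentile ranged from 7.43 to 7.63 for knockout cells at 6 h and from 7.72 to 7.85 for the other groups, and this scaling moved the median knockout change of all genes from 0.03 to 0.30 and that of the 42 from −1.65 to −1.38. Under it, 3 in place of 4 of the 42 had a wild-type change above 0. Leaving out 1 array at a time gave 24 to 124 genes: 124 without unstimulated knockout array 3, 100 without knockout array 1 at 6 h and 24 without knockout array 3 at 6 h. Members kept in all 12 of these were Ankrd28, Eif2ak3, Fads1, Glul, Haus8, Ica1, Kcnj2, Nek6 and Sesn1, and 7 of these 9 (not Fads1 and Nek6) were kept under the 75th percentile scaling too. With median-centred arrays 37 genes met the rule, and with the mean of a gene's probe sets 42, without Tmem154. For the genotypes at 1 h, 436 genes were called as reported, 257 with the 1 h arrays alone, 929 with array weights and 243 to 521 when leaving out 1 array (243 without wild-type array 2 or knockout array 3 at 1 h, 269 without wild-type array 1). With the replicate number as a replicate block the count was 828, and 1 of the 42 was then called higher and 2 lower. The higher one was Nt5dc2 (limma, adjusted p = 0.001), which was also the 1 called with a random replicate block (0.041) and with array weights (0.037). The second lower one was Cebpa (limma, adjusted p = 0.033), likewise 2 lower with array weights. Leaving out any 1 array kept 0 higher and 1 lower. Scd2 was called lower under all 28 alternatives. The causes of these shifts were not tested.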
